A study of Homo sapiens with 18 samples.

Results

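The 9 genes described here make, export, sense and degrade sphingosine 1-phosphate (S1P), and they are 9 of the 62703 genes counted in each library. They are SPNS2, SPHK1, SPHK2, S1PR1, S1PR2, S1PR3, SGPL1, SGPP1 and PLPP3, and the set was chosen by the measured level of the exporter SPNS2, which was higher in both knockdowns of the study. The values of SPNS2 in the knockdown libraries are therefore given as a description without a test, and counts of genes called in the knockdowns cover the other 8.

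Polyadenylated RNA came from MDA-MB-231, an established human line of triple-negative breast cancer cells, in 5 groups of 2 libraries. Cells of the knockdown groups were transduced with a pLKO.1 lentivirus carrying a control shRNA, an shRNA against EZH2 (shEZH2) or an shRNA against E2F1 (shE2F1), and 24 h later were selected with puromycin at 2 ug per ml for 72 h. Cells of the drug groups received 1 uM GSK126 or its solvent DMSO for 72 h, without virus. EZH2 is the methyltransferase subunit of the Polycomb complex PRC2, GSK126 blocks that activity, and E2F1 switches on genes for DNA replication. The study asked which functions of EZH2 run through E2F1 rather than through histone methylation. All groups were 1 cell line, and the labels do not state whether the 2 libraries of a group were separate cultures, so that the spread between them may be technical.

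S1P is a lipid made from sphingosine, the backbone of ceramide, by the sphingosine kinases SPHK1 and SPHK2. SPNS2 carries it out of the cell, where it binds S1P receptors, which are coupled to G proteins and act on cell movement and survival. Inside the cell, the lyase SGPL1 cuts S1P irreversibly, and the phosphatase SGPP1 turns it back into sphingosine. PLPP3 is a phosphatase of the cell surface that removes phosphate from extracellular S1P and lysophosphatidic acid. In the body, S1P is best known for guiding lymphocytes out of lymphoid organs and for keeping blood vessels tight.

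E2F factors bind a short recognised motif, and its letters were looked for in promoter windows of these genes. Binding, and any part of the motif in the changes, was not tested. Windows of 300 bases, from 250 before to 50 after the start of a RefSeq transcript (GRCh38.p14), were held for 7 of the 9 genes, 11 windows in all, and none for SPNS2 or SGPP1. The letters TTTCCCGC, TTTCGCGC, TTTGCCGC and TTTGGCGC were searched on both strands. They occurred in 3.31% of 35116 such windows and in 1 window of the members, that of S1PR2. There TTTCGCGC began at position -227 from the start. The stretch chr19:10231540-10231569 (minus strand) is printed with the motif in capitals and 11 bases on each side.
S1PR2 motif: gctgcgtgacgTTTCGCGCcggccggttct
The 250 bases before the start are shown for S1PR2 and S1PR3, the receptors that were called in different knockdowns, with each CpG in capitals. The S1PR2 stretch (chr19:10231332-10231581, minus strand) held 27 CpG, and 17.7% of all windows held as many or more. The S1PR3 stretch (chr9:88990613-88990862, plus strand) held 10, where the median over the same 250 bases of all windows was 11. S1PR3 has another start with a window of its own (chr9:88991218-88991517), and by whole windows of 300 bases the CpG counts were 17 and 32 for S1PR3, 31 for S1PR2 and 23 for S1PR1, beside a median of 14.
S1PR2: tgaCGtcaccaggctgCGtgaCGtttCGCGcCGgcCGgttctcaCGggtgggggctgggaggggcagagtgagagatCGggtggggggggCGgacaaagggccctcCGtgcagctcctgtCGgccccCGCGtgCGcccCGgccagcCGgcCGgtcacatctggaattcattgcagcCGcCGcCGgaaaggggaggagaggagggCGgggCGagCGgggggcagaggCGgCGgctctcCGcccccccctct
S1PR3: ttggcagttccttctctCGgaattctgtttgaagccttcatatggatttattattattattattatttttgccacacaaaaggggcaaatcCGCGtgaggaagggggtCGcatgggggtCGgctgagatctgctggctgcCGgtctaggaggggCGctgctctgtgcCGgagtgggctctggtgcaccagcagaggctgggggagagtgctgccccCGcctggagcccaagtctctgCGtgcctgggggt

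Levels of a gene between libraries are given as CPM, the counts of a gene per 1000000 of its library, scaled by TMM factors, and levels between genes as TPM, which also divides by gene length. Changes are log2 values with their standard error (SE), and a gene was called when its edgeR adjusted p, corrected over all genes tested, was under 0.01 and its change exceeded 2-fold. In bulk RNA, a change in every cell and a change in the share of cells that carry a transcript cannot be told apart.

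Totals ran from 13198932 counts in shEZH2 replicate 1 to 20055550 in DMSO replicate 1. EZH2 stood at 153 and 181 CPM with control shRNA and at 52.6 and 44.8 CPM with shEZH2, a change of -1.79 ± 0.12 (SE, edgeR adjusted p = 2.4e-06). E2F1 stood at 143 and 138 CPM with control shRNA and at 26 and 22.5 CPM with shE2F1, a change of -2.54 ± 0.24 (SE, edgeR adjusted p = 1.52e-05). With shEZH2, E2F1 stood at 62.4 and 32.3 CPM, a change of -1.59 ± 0.23 (SE, edgeR adjusted p = 0.000172) that ranged from -2.14 to -1.17 when either shEZH2 library was left out. Of the markers of a triple-negative line, PGR was at 0 in every library, ESR1 reached at most 0.17 TPM, and ERBB2 ran from 20 to 35.6 TPM. VIM ran from 1185 to 2860 TPM and was lowest with shEZH2. Of the other mesenchymal markers CD44 ran from 446 to 659 TPM, while SPARC and CDH2 were at 4.26 TPM or less, and of the epithelial markers EPCAM ran from 12.4 to 37.7 TPM and CDH1 from 0.26 to 4.5 TPM. Markers of endothelial cells and of leukocytes, cells known for S1P receptors, were near 0, with CD3E at 0 in every library and PTPRC at 0.46 TPM or less. The summed endothelial markers (PECAM1, CDH5, VWF and TEK) were 0.22 to 0.3 TPM with control shRNA, 0.74 to 1.41 TPM with shEZH2, 0.79 to 0.94 TPM with shE2F1, 0.38 to 0.7 TPM with DMSO and 0.77 TPM in both GSK126 libraries. S1PR1, which endothelial cells express, was at 2.11 to 9.05 TPM over all libraries, and the part of these markers in its values was not tested. ITGAM, a further leukocyte marker, was at 0.21 TPM or less.

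SPNS2 (ENSG00000183018, chr17:4498881-4539035, plus strand) was the member that differed most between groups. Its levels were 2.38 and 2.1 CPM with control shRNA, 44.1 and 53.2 CPM with shEZH2, and 12.6 and 11.5 CPM with shE2F1. No library of a knockdown overlapped the control libraries, nor did the knockdowns overlap each other. The fitted changes were 4.42 ± 0.17 (SE) with shEZH2, or 21.4-fold, and 2.41 ± 0.18 (SE) with shE2F1, or 5.33-fold. Both are measured against the same 2 control libraries. In TPM, SPNS2 stood at 1.38 and 1.55 with control shRNA and ranked 7 and 8 among the 9 genes. With shEZH2 it stood at 31.6 and 40.5 TPM and ranked 2 and 1, beside SPHK1 at 35.8 and 36.2 TPM.

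Without virus, SPNS2 was at 2.71 and 4.97 CPM in the DMSO libraries and at 3.75 and 5.83 CPM in the GSK126 libraries. The ranges of these groups overlapped, and the change with GSK126 was 0.33 ± 0.36 (SE, edgeR adjusted p = 1). This small value was -0.04 without DMSO replicate 1 and -0.02 without GSK126 replicate 2. Between libraries of the same replicate number, GSK126 minus DMSO was 0.47 in replicate 1 and 0.23 in replicate 2. The shEZH2 change exceeded the GSK126 change by 4.10 ± 0.39 (SE) on the log2 scale, a difference that contains the values used to choose the gene. The 3′ end of SPNS2 shares 139 bases, 3.42% of its exon bases, with MYBBP1A on the opposite strand, and whether counting took strand into account is not stated. MYBBP1A, at 42.8 to 95.3 TPM, changed by -0.78 ± 0.11 (SE) with shEZH2 and by 0.36 ± 0.10 (SE) with shE2F1. Its direction was opposite to that of SPNS2 with shEZH2 and the same with shE2F1. The part of MYBBP1A in the SPNS2 counts was not tested. SPNS3, the neighbouring paralog 10673 bases upstream, stayed between 0.1 and 0.575 CPM in all libraries. The length that the counting software assigned to SPNS2 transcripts ran from 1848 to 2890 bases, highest in shE2F1 replicate 2, and with these lengths as an offset the shE2F1 value was 2.02.

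**Figure D1:**
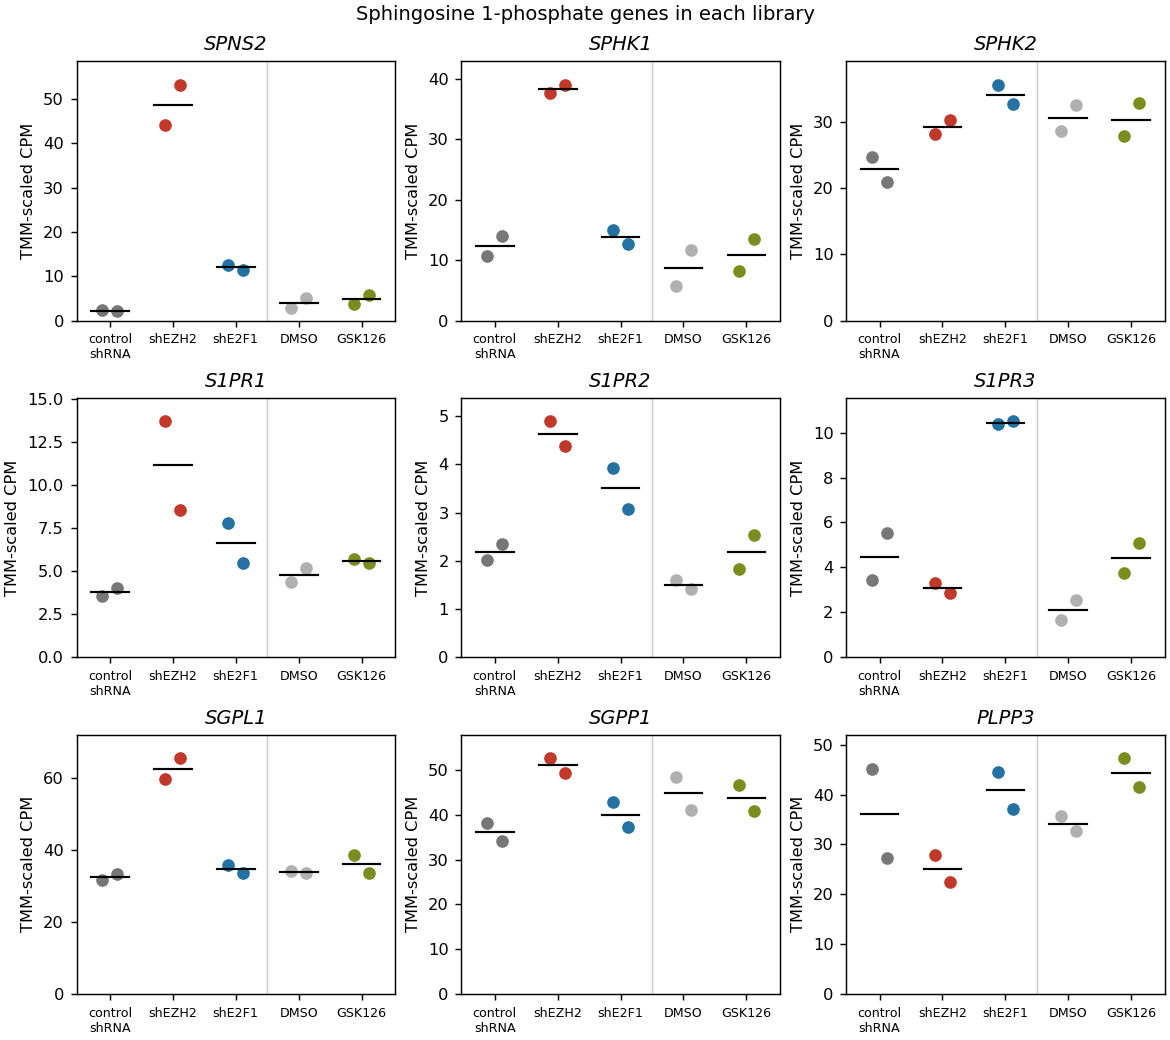
Each panel plots a gene, with TMM-scaled CPM on a linear axis from 0 and the 5 groups along the bottom; points are libraries, lines are means of 2, and the vertical line parts the knockdown from the drug experiment. SPNS2, SPHK1 and SGPL1 stand highest in both shEZH2 libraries, S1PR3 stands highest in both shE2F1 libraries at 10.4 and 10.5 CPM, and PLPP3 stands lowest in shEZH2 replicate 2 at 22.5 CPM.

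Among the other 8 members, 3 were called with shEZH2, namely SPHK1, S1PR1 and S1PR2, all higher, where 18.2% of the 15373 genes tested were called in either direction. With shE2F1, 1 of the 8 was called, S1PR3, beside 11.6% of all genes. Between the knockdowns, shEZH2 against shE2F1, 2 of the 8 were called, SPHK1 and S1PR3, beside 23.3% of all genes. The median change of these 8 was 0.71 with shEZH2 and 0.37 with shE2F1, where the medians over all genes tested were -0.02 and -0.00. Both knockdowns were compared with the same control libraries, so that their values are not independent.

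Of the kinases, SPHK1 was called and SPHK2 was not. SPHK1 (ENSG00000176170, chr17:76376584-76387860, plus strand), a kinase of the cytoplasm that moves to the plasma membrane, stood at 10.7 and 14 CPM with control shRNA, 37.6 and 39 CPM with shEZH2, and 14.9 and 12.7 CPM with shE2F1. The shEZH2 libraries lay above all others, and the shE2F1 libraries overlapped the controls. SPHK1 rose by 1.62 ± 0.15 (SE) with shEZH2, or 3.07-fold, with an edgeR adjusted p of 1.29e-05. SPHK1 shares 59 exon bases, 1.34% of its own, with PRPSAP1 on the opposite strand, a gene at 33.5 to 85 TPM that changed in the same direction with shEZH2, by 0.82 ± 0.10 (SE), and its part in the SPHK1 counts was not tested. The change with shE2F1 was 0.15 ± 0.16 (SE, edgeR adjusted p = 0.453). The difference between the knockdowns itself passed, at 1.47 ± 0.15 (SE, edgeR adjusted p = 1.3e-05).

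SPHK2 (ENSG00000063176, chr19:48619291-48630717, plus strand), the kinase found mainly in the nucleus and at internal membranes, stood at 24.8 and 21 CPM with control shRNA, 28.3 and 30.4 CPM with shEZH2, and 35.7 and 32.7 CPM with shE2F1. Every knockdown library lay above both controls by a small step. The change with shE2F1, 0.57 ± 0.12 (SE, edgeR adjusted p = 0.00362), passed on p but stayed under 2-fold, and with shEZH2 it was 0.35 ± 0.13 (SE, edgeR adjusted p = 0.0369). With a correction for GC content and length, the shEZH2 change was 0.80 (edgeR adjusted p = 0.000156), also under 2-fold. The shE2F1 change ran from 0.57 to 0.62 over the settings with no single library left out. With single libraries left out it ran from 0.46 to 0.69. As a ratio of TPM, SPHK1 to SPHK2 was 0.498 and 0.8 with control shRNA, 1.61 and 1.57 with shEZH2, and 0.488 and 0.458 with shE2F1. SPHK1 was thus the more abundant kinase transcript in both shEZH2 libraries, and SPHK2 in all others. SPHK2 shares 661 exon bases with DBP on the opposite strand, a gene at 2.88 to 7.53 TPM that was called in neither knockdown.

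The receptors did not move as a group. S1PR1 (ENSG00000170989, chr1:101236865-101243713, plus strand), which couples to inhibitory G proteins, stood at 3.55 and 4.02 CPM with control shRNA, 13.7 and 8.58 CPM with shEZH2, and 7.81 and 5.5 CPM with shE2F1. Both knockdowns lay above the controls, and the shEZH2 libraries lay furthest and differed most from each other. S1PR1 rose by 1.54 ± 0.27 (SE) with shEZH2, with an edgeR adjusted p of 0.000735. Its change of 0.81 ± 0.28 (SE) with shE2F1 had an edgeR adjusted p of 0.034. The difference between the knockdowns was 0.72 ± 0.26 (SE, edgeR adjusted p = 0.0306). It depended on the shEZH2 libraries, at 0.36 without replicate 1 (edgeR adjusted p = 0.271) and at 1.04 without replicate 2 (edgeR adjusted p = 0.00549), where it was called.

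S1PR2 (ENSG00000267534, chr19:10221433-10231331, minus strand) holds the motif letters printed above in its promoter window, where binding of E2F1 was not tested. It stood at 2.01 and 2.34 CPM with control shRNA, 4.89 and 4.37 CPM with shEZH2, and 3.93 and 3.07 CPM with shE2F1. The 3 groups did not overlap. S1PR2 rose by 1.08 ± 0.27 (SE) with shEZH2, with an edgeR adjusted p of 0.00624, just inside the threshold. The call was lost without any of the 4 libraries, control shRNA replicate 1 (0.97), control shRNA replicate 2 (1.19), shEZH2 replicate 1 (0.99) or shEZH2 replicate 2 (1.17), in DESeq2 (adjusted p = 0.016), with the effective length offset (0.0146) and with only the 4 libraries compared (0.0123). With shE2F1 the change was 0.68 ± 0.27 (SE, edgeR adjusted p = 0.0619). The gene shares 83 exon bases with DNMT1 on the same strand, and DNMT1 fell by 1.09 on the log2 scale with shEZH2. The part of DNMT1 in the S1PR2 counts was not tested.

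S1PR3 (ENSG00000213694, chr9:88990863-89005155, plus strand), which couples to several G proteins, had another order. It stood at 3.44 and 5.52 CPM with control shRNA, 3.31 and 2.88 CPM with shEZH2, and 10.4 and 10.5 CPM with shE2F1. The shE2F1 libraries lay above all others, and the shEZH2 libraries lay just below the lower control. S1PR3 rose by 1.22 ± 0.24 (SE) with shE2F1, with an edgeR adjusted p of 0.00174, and its change of -0.54 ± 0.26 (SE) with shEZH2 had an edgeR adjusted p of 0.103. The difference between the knockdowns was called, at -1.76 ± 0.25 (SE, edgeR adjusted p = 0.000126). The shE2F1 call was lost without control shRNA replicate 1 (0.91), shE2F1 replicate 1 (1.23, edgeR adjusted p 0.0176) or shE2F1 replicate 2 (1.21, edgeR adjusted p 0.0183).

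**Figure D2:**
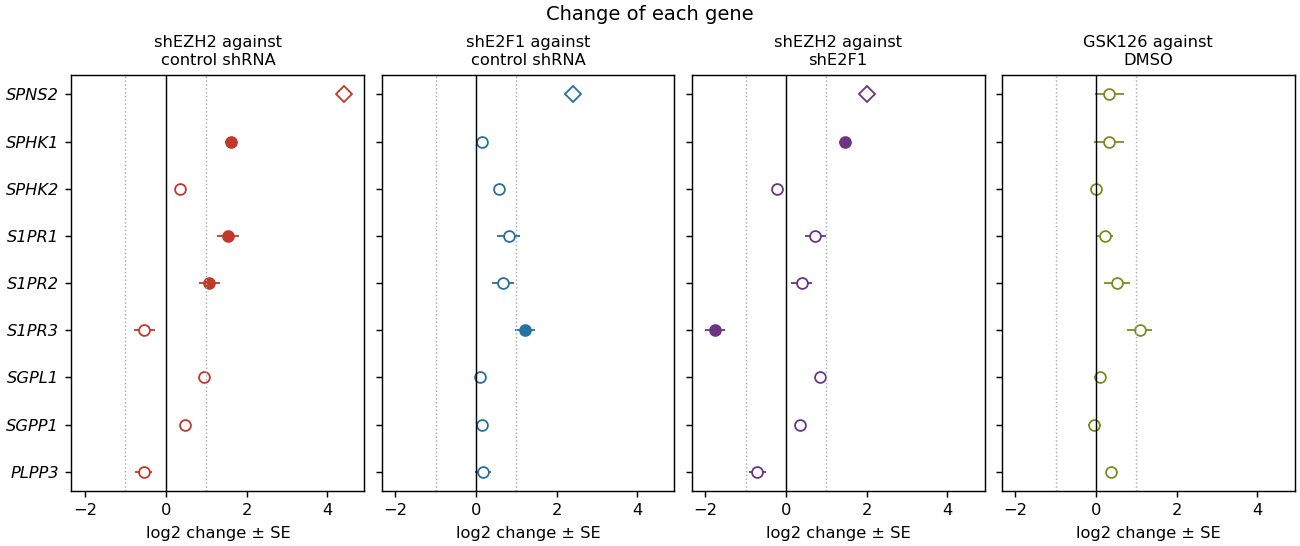
Each panel plots a comparison, with the log2 change and its SE on the horizontal axis and the 9 genes as rows; filled points were called, open points were not, diamonds mark SPNS2 where its value chose the genes, and dotted lines mark a 2-fold change. SPHK1, S1PR1 and S1PR2 are called with shEZH2, S1PR3 with shE2F1, SPHK1 and S1PR3 between the knockdowns, and no gene with GSK126.

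Seen as a makeup of receptor transcripts, the summed TPM of S1PR1 to S1PR5 was 5.3 and 5.52 with control shRNA, 12.6 and 8.82 with shEZH2, and 11.1 and 10.5 with shE2F1. Every knockdown library lay above both controls, and the makeup differed. S1PR1 made up 42.5% and 38.2% of it in the controls, 71.7% and 64.6% with shEZH2, and 45.1% and 35.6% with shE2F1. S1PR3 made up 22.5% and 32.4% in the controls, 10.2% and 11.6% with shEZH2, and 34.8% and 38.8% with shE2F1. Without virus, S1PR1 made up 60.6% and 57.5% with DMSO and 54.4% and 50.4% with GSK126. S1PR3 made up 13.3% and 16.7% with DMSO and 21.8% and 25% with GSK126. The makeup thus also differed between the control shRNA and the DMSO libraries. S1PR5, a receptor known from natural killer cells and oligodendrocytes, had 24 and 13 counts in the controls and 0 in both shEZH2 libraries. Against a floor of 3 counts per library it was at least 4.55-fold lower, with an edgeR adjusted p of 0.00137 that became 0.0103 without control shRNA replicate 1 and 0.0125 without shEZH2 replicate 2. S1PR4 was at 0.69 TPM or less in every library.

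**Figure D3:**
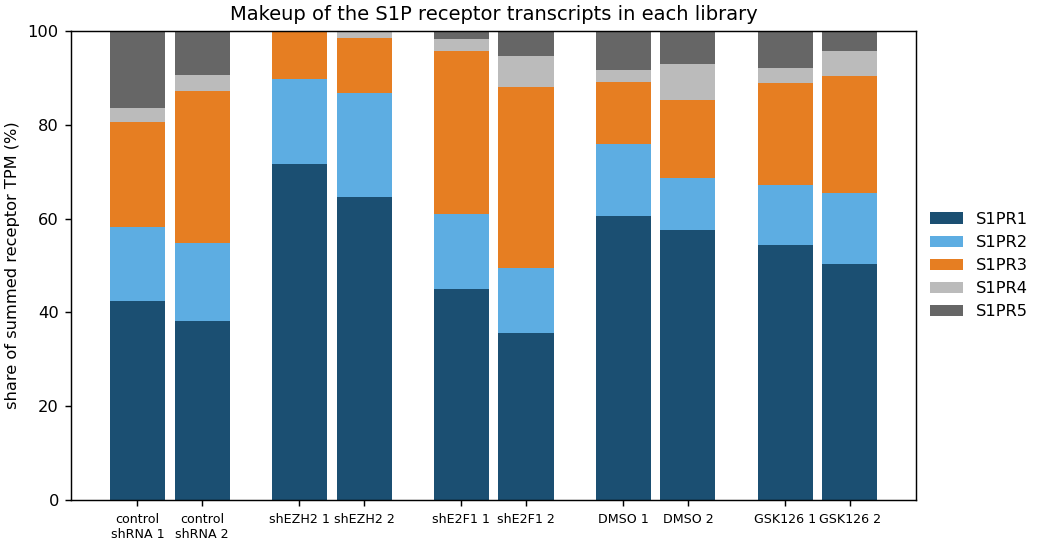
Stacked bars give, for each of the 10 libraries, the share in percent of the summed TPM of the 5 S1P receptors that each receptor made up. The S1PR1 segment is tallest in the shEZH2 libraries, at 71.7% and 64.6%, the S1PR3 segment in the shE2F1 libraries, at 34.8% and 38.8%, and S1PR5 is missing from the shEZH2 bars.

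Of the enzymes that remove S1P, the lyase came nearest to a call. SGPL1 (ENSG00000166224, chr10:70815905-70895816, plus strand) stood at 31.6 and 33.5 CPM with control shRNA, 59.8 and 65.6 CPM with shEZH2, and 36 and 33.6 CPM with shE2F1. The shE2F1 libraries lay just above the controls, and the shEZH2 libraries lay far above both. The change of 0.94 ± 0.10 (SE, edgeR adjusted p = 3.29e-05) lay just under 2-fold, so that SGPL1 was not called. Its change with shE2F1 was 0.09 ± 0.10 (SE), and the difference between the knockdowns was 0.84 ± 0.10 (SE, edgeR adjusted p = 4.23e-05).

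SGPP1 (ENSG00000126821, chr14:63684216-63728065, minus strand), the phosphatase of the endoplasmic reticulum, stood at 38.1 and 34.2 CPM with control shRNA, 52.7 and 49.4 CPM with shEZH2, and 42.9 and 37.2 CPM with shE2F1. The shEZH2 libraries lay above the others by less than 2-fold, a change of 0.48 ± 0.11 (SE, edgeR adjusted p = 0.00432). PLPP3 (ENSG00000162407, chr1:56494761-56645301, minus strand) stood at 45.1 and 27.2 CPM with control shRNA, 27.8 and 22.5 CPM with shEZH2, and 44.6 and 37.1 CPM with shE2F1. The controls were far apart and overlapped both knockdowns. Its change with shEZH2 was -0.55 ± 0.21 (SE, edgeR adjusted p = 0.0488), and ran from -0.86 to -0.13 when single libraries were left out. PLPP3 shares 576 exon bases with a protein-coding gene on the same strand, ENSG00000284686, which was at 0.55 TPM or less.

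GSK126 was the comparison that the choice of genes did not use. Without a replicate block, a term for the replicate number, none of the 9 was called in edgeR or DESeq2. Of the 14632 genes tested, 0% were called in edgeR, 577 had an unadjusted edgeR p under 0.05 and DESeq2 called 11. With this block in edgeR, 68 genes were called, S1PR3 among them, although the labels do not tie replicate numbers to a batch. Of the 9 genes, 2 had an unadjusted p under 0.05, S1PR3 and PLPP3. S1PR3 stood at 1.65 and 2.54 CPM in the DMSO libraries and at 3.75 and 5.07 CPM in the GSK126 libraries. Both treated libraries lay above both DMSO libraries, and the change was 1.08 ± 0.31 (SE), with an unadjusted edgeR p of 0.0116 and an adjusted p of 1. With the replicate block the S1PR3 change was 1.08 with an edgeR adjusted p of 0.00148, so that its call depended on the block. PLPP3 stood at 35.6 and 32.6 CPM in the DMSO libraries and at 47.3 and 41.5 CPM in the GSK126 libraries, again without overlap, a change of 0.38 ± 0.14 (SE) with an unadjusted edgeR p of 0.0296 and an adjusted p of 1.

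No other member had an unadjusted p under 0.05 with GSK126. SPHK1 stood at 5.71 and 11.7 CPM in the DMSO libraries and at 8.14 and 13.5 CPM in the GSK126 libraries, a change of 0.32 ± 0.38 (SE). S1PR2 stood at 1.6 and 1.41 CPM in the DMSO libraries and at 1.82 and 2.53 CPM in the GSK126 libraries, a change of 0.52 ± 0.32 (SE). The groups overlapped for SPHK1 and not for S1PR2. S1PR1 stood at 4.36 and 5.2 CPM in the DMSO libraries and at 5.68 and 5.48 CPM in the GSK126 libraries, SGPL1 at 34.2 and 33.6 against 38.7 and 33.6 CPM, SPHK2 at 28.7 and 32.6 against 27.9 and 32.9 CPM, and SGPP1 at 48.4 and 41.2 against 46.8 and 40.8 CPM. S1PR1 changed by 0.23 ± 0.20 (SE) without overlap, SGPL1 by 0.09 ± 0.13 (SE), SPHK2 by -0.01 ± 0.14 (SE) and SGPP1 by -0.04 ± 0.15 (SE). The edgeR adjusted p was 1 for each of these genes.

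The effects of shEZH2 and of GSK126 were compared as the shEZH2 change minus the GSK126 change. The study lists 1 shRNA sequence per target, and only the knockdown cells were transduced and selected. In this difference, loss of EZH2 thus cannot be told apart from other effects of that shRNA or of the handling. In the fit without a replicate block, 1 of the 8 members other than SPNS2 was called, S1PR3, beside 13.8% of 15773 genes. Its difference was -1.61 ± 0.41 (SE, edgeR adjusted p = 0.00951). It was lost without control shRNA replicate 2 (-1.24), shEZH2 replicate 1 (-1.71), shEZH2 replicate 2 (-1.51), DMSO replicate 1 (-1.33) or GSK126 replicate 2 (-1.38), with DESeq2 size factors (edgeR adjusted p = 0.0104) and with the effective length offset (edgeR adjusted p = 0.0169). SPHK1 differed by 1.31 ± 0.41 (SE, edgeR adjusted p = 0.024). SPHK1 was called in DESeq2 (1.34), with no filter (1.29) and with the GC content and length correction (1.81). It was also called with the replicate block (1.29) and with the block and the correction together (1.81). The SPHK1 difference was 1.74 without DMSO replicate 1, 1.71 without GSK126 replicate 2 and 0.71 without DMSO replicate 2. S1PR1 differed by 1.32 ± 0.37 (SE, edgeR adjusted p = 0.0139), and ran from 0.95 without shEZH2 replicate 1, with an adjusted p of 0.0571, to 1.63 without shEZH2 replicate 2, where it was called, as it was with no filter (1.31). SGPL1 differed by 0.85 ± 0.17 (SE, edgeR adjusted p = 0.00197), under 2-fold. PLPP3 differed by -0.91 ± 0.29 (SE, edgeR adjusted p = 0.0257), and ran from -0.50 without control shRNA replicate 1, with an adjusted p of 0.131, to -1.23 without control shRNA replicate 2, where it was called. For SPHK2, S1PR2 and SGPP1 the differences were 0.37, 0.56 and 0.53.

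Genes around the 9 were followed in 4 lists of 71 genes, of which 60 were tested in the knockdowns. With shEZH2, 19 of the 60 were called, 8 higher and 11 lower, and with shE2F1 5 were called, 1 higher and 4 lower, where 18.2% and 11.6% of all genes were called. The median change of the 60 was 0.14 with shEZH2 and -0.03 with shE2F1. The shEZH2 count was 12 without shEZH2 replicate 2, and the shE2F1 count was 8 without control shRNA replicate 2 and 3 without shE2F1 replicate 2. The lists thus held calls in both directions. With GSK126 none of 58 tested was called in edgeR or DESeq2. An unadjusted edgeR p under 0.05 was found for 2 of the 58, beside 577 of all 14632 genes tested.

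Of 10 tested genes that also handle or carry S1P, 3 were called lower with shEZH2 and none higher, beside 18.2% of all genes called in either direction. Besides S1PR5 these were ABCA1, a lipid exporter, and CIB1, which brings SPHK1 to the membrane. ABCA1 stood at 111 and 50.7 CPM with control shRNA, 30 and 29.4 CPM with shEZH2, and 35.8 and 33.3 CPM with shE2F1, and it fell by 1.47 with shEZH2 and by 1.24 with shE2F1 on the log2 scale. The controls were far apart, and without control shRNA replicate 1 the changes were -0.79 and -0.57, not called. The shE2F1 change was also not called without either shE2F1 library, nor in DESeq2. CIB1 stood at 45.3 and 48.7 CPM with control shRNA and 23.9 and 23.1 CPM with shEZH2, a change of -1.01 ± 0.11 (SE) at the 2-fold line, and the call was lost without control shRNA replicate 2 (-0.96) or shEZH2 replicate 2 (-0.97), in DESeq2, with its size factors, with the effective length offset (-0.93) and with the GC content and length correction (-0.85).

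Of 30 tested genes of sphingolipid synthesis and turnover, 5 were called higher and 6 lower with shEZH2, beside 18.2% of all genes called in either direction. SPTLC2, a subunit of the enzyme that starts sphingolipid synthesis, went from 49.1 and 48 CPM to 124 and 133 CPM and rose by 1.39 ± 0.10 (SE). ORMDL2, an inhibitor of that enzyme, went from 20 and 21.1 CPM to 6.1 and 6.16 CPM and fell by 1.76 on the log2 scale. Their paralogs were called in the opposite directions, and are named after their values were seen. ORMDL3, also an inhibitor, rose by 1.07 ± 0.10 (SE), from 34.8 and 33.2 CPM to 67.2 and 77 CPM, and was at 0.99 without shEZH2 replicate 2. SPTLC3, also a subunit, fell by 1.06 on the log2 scale, from 32.4 and 21.7 CPM to 15 and 11.4 CPM, and was not called without control shRNA replicate 1 (-0.74), without shEZH2 replicate 2 (-0.85) or with the effective length offset (-0.81). ACER2, a ceramidase that releases sphingosine, went from 1.11 and 1.08 CPM to 4.14 and 6.27 CPM, a rise of 2.24 ± 0.41 (SE) that was not called without shEZH2 replicate 2 (1.91). GALC, which releases ceramide from galactosylceramide, rose by 1.13 ± 0.14 (SE) with shEZH2 and fell by 1.03 on the log2 scale with shE2F1, but it was not called with shEZH2 under the GC content and length correction (0.98), nor with shE2F1 under the effective length offset (-0.74), with a mean of at least 50 counts, or without control shRNA replicate 1 or shE2F1 replicate 2 (-0.87). SMPD2, a sphingomyelinase, went from 8.37 and 6.12 CPM to 1.73 and 0.748 CPM and fell by 2.61 on the log2 scale. With single libraries left out, its change ran from -3.28 to -2.06. Genes on the route from serine to sphingosine thus moved in both directions. With shE2F1, 2 of the 30 were called, beside 11.6% of all genes. They were GALC and CERS6, a ceramide synthase, which went from 18 and 22.2 CPM to 3.26 and 4.15 CPM and fell by 2.45 on the log2 scale.

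In the lysophosphatidic acid branch, a sister lipid signal that PLPP3 also ends, 3 of 4 tested genes were called with shEZH2, beside 18.2% of all genes. ENPP2, the enzyme autotaxin that makes this lipid, went from 0.371 and 0.42 CPM to 2.56 and 1.9 CPM, a rise of 2.46 ± 0.48 (SE) from very low levels that was not called without control shRNA replicate 1 (2.36) or shEZH2 replicate 1 (2.23). The receptors LPAR1 and LPAR2 fell by 1.36 and 1.77 on the log2 scale, LPAR1 from 145 and 151 CPM to 70.8 and 45.9 CPM. In the same cells S1PR1 and LPAR1 thus changed in opposite directions. None of the 4 was called with shE2F1 in edgeR. An unadjusted edgeR p under 0.05 was found for 2 of the 4, beside 8113 of all 15373 genes tested.

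Of 16 genes of G proteins and receptor trafficking, 2 were called with shEZH2, beside 18.2% of all genes. They were GNAQ, a G protein subunit, which rose by 1.55 ± 0.11 (SE), and TIAM1, an activator of Rac, which rose by 1.02 ± 0.13 (SE). TIAM1 was not called without shEZH2 replicate 2 (0.97), with the effective length offset (0.94) or with the GC content and length correction (0.82). With shE2F1, GNAI1, an inhibitory G protein subunit through which S1PR1 signals, rose by 1.57 ± 0.10 (SE), and ARHGEF12, an exchange factor that acts downstream of G proteins, fell by 1.15 on the log2 scale. GNAI1 went from 19.6 and 19.7 CPM with control shRNA to 61.4 and 56.3 CPM with shE2F1. It also stood higher with shEZH2, at 39.2 and 38.6 CPM. That rise of 0.97 ± 0.11 (SE, edgeR adjusted p = 3.11e-05) lay just under 2-fold and was not called.

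**Figure D4:**
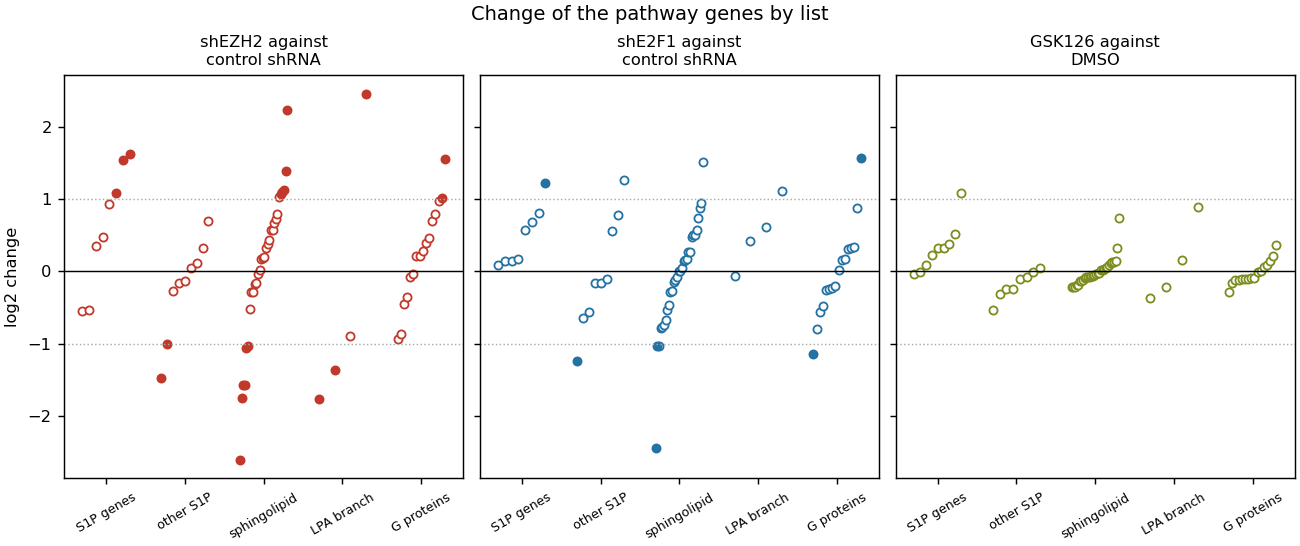
Each point is a gene, placed by its list and by its log2 change, in the comparisons shEZH2 and shE2F1 against control shRNA and GSK126 against DMSO; filled points were called, dotted lines mark a 2-fold change, and S1PR5 and, in the knockdowns, SPNS2 are left out. Called genes lie on both sides of 0 in the shEZH2 panel, 5 of the list genes are called in the shE2F1 panel besides S1PR3, and none in the GSK126 panel.

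The order of groups was compared across genes as a description. Over the 10 libraries, log2 CPM of SPNS2 had a Pearson r of 0.91 with S1PR1, 0.87 with SPHK1, 0.86 with S1PR2 and 0.86 with SGPL1. It was 0.59 with SGPP1, 0.46 with SPHK2, 0.12 with S1PR3 and -0.51 with PLPP3. Among 9389 genes with a mean of at least 200 counts, the 5 with the highest r to SPNS2 were AFG3L2 (0.985), a mitochondrial protease, PEDS1 (0.978), an enzyme of plasmalogen synthesis, GNL1 (0.977), TBC1D7 (0.975) and PANX1 (0.975), a channel of the plasma membrane. The 10 points of each gene fall into the 5 groups and come from the same libraries. AFG3L2 went from 78.1 and 86.3 CPM with control shRNA to 170 and 166 CPM with shEZH2 and 117 and 121 CPM with shE2F1. TBC1D7 went from 6.88 and 8.16 CPM to 19.9 and 26.5 CPM with shEZH2 and 15 and 15.4 CPM with shE2F1. The 5 genes were picked for their r to SPNS2, so that a shared order follows from the choice, and their steps were smaller. The share of all genes that reach the r of the members was not counted.

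**Figure D5:**
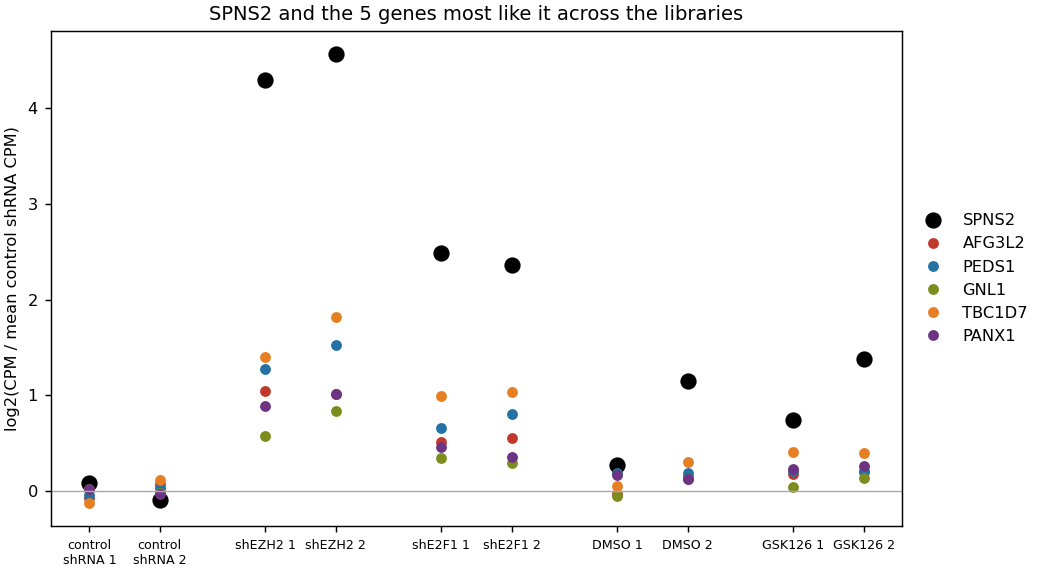
Points give log2 of CPM over the mean of the control shRNA libraries, on the vertical axis, for SPNS2 and the 5 genes with the highest r to it, in each of the 10 libraries. All 6 genes stand highest in the shEZH2 libraries and next in the shE2F1 libraries, and SPNS2 has the widest span.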

How the data were processed

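MDA-MB-231 transcripts were sequenced after poly(A) selection. The 18 sample records held 10 distinct libraries, since 8 repeated another record value for value. The authors mapped reads to hg38 (Ensembl annotation) with STAR and estimated abundance with RSEM. The submitters' processing notes list STAR 2.7.2b and RSEM 1.3.1, and the study's methods name another STAR version. The deposited files hold expected counts, in which reads that map to several genes are divided, and TPM and effective lengths. The authors' strand setting is not stated in the sources used here. Estimates were taken as deposited.

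Symbols and GRCh38 coordinates came from GENCODE 44 (62625 identifiers matched). Expected counts were rounded and tested with edgeR 4.0.16 in R 4.3.3 (filterByExpr, TMM, quasi-likelihood F-test, Benjamini-Hochberg). The 6 knockdown libraries formed a fit, the 4 drug libraries another, and all 10 a fit for the shEZH2 change minus the GSK126 change. Calls needed an adjusted p under 0.01 and over 2-fold, the study's threshold. The pipeline was tested on simulated data. For a gene with no count, the limit of 3 counts lies between 0.15 and 0.227 CPM, by counting error only.

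The members, the 4 pathway lists, the markers and the alternatives were chosen with earlier results of these data known. Named genes were the 9 members, EZH2, E2F1, up to 3 called genes per direction and list with the largest change, the 5 genes most like SPNS2 (Pearson r of log2 CPM, prior count 2), overlapping or neighbouring genes, and markers. Alternatives were DESeq2 1.42.0, its size factors, other filters and thresholds, other sets of libraries, a replicate block, an effective length offset, a GC content and length correction (splines, 5 degrees of freedom) and leaving out each library. Some genes that this rule selected are not reported here.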

Additional observations from a re-analysis of the deposited data

How the results depend on the processing

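With 2 libraries a group, leaving out a library leaves a lone sample that is assumed to vary like the other groups. At an adjusted p under 0.05 with no fold, the calls were 7 of 8 members with shEZH2, 3 with shE2F1, 6 between the knockdowns and 6 in the shEZH2 minus GSK126 difference, 40 and 31 of 60 pathway genes, and 8550, 6879, 9267 and 5780 genes in all in these 4 comparisons. With single libraries left out, the members called were 2 of 8 each time with shEZH2, 0 to 1 with shE2F1, 2 to 3 between the knockdowns and 0 to 1 in the shEZH2 minus GSK126 difference, and pathway genes from 12 to 19 with shEZH2 and 3 to 8 with shE2F1. The shEZH2 minus GSK126 difference called 2 members with DESeq2, 0 with its size factors, 3 with no filter, 0 with the effective length offset and 2 with the GC content and length correction, and 1305 genes in all without shEZH2 replicate 2. GSK126 called 37 to 43 genes with single libraries left out. Changes that crossed 0, none of them called, were those of SPHK1 with shE2F1 (-0.03 to 0.36), PLPP3 with shE2F1 (-0.14 to 0.58), SPHK2 between the knockdowns with the GC content and length correction (0.18), and with GSK126 SPNS2 (-0.04 to 0.81), SPHK1 (-0.10 to 0.91), SPHK2 (-0.13 to 0.10, and 0.02 with the effective length offset), SGPL1 (-0.01 to 0.20) and SGPP1 (-0.15 to 0.10). Between GSK126 and DMSO libraries of the same number, SPNS2 was 0.47 and 0.23, SPHK1 0.51 and 0.21, and SGPP1 -0.05 and -0.01. By the same measure SPHK2 was -0.04 and 0.01, and SGPL1 0.18 and -0.00. The cause of the crossings was not tested.

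Replicate numbers are shared between groups, but the labels do not tie them to a batch. Deviations of same-numbered libraries correlated at 0.66 between DMSO and GSK126 and at 0.04 to 0.20 between the knockdown groups, over 11918 genes with a mean of at least 50 counts. With the replicate block, GSK126 called 68 genes (53 with the GC content and length correction as well) and 1 of 9 members, S1PR3, at 1.08 with an edgeR adjusted p of 0.00148, and likewise 1 with the correction and the block together. The block gave 3 members in the shEZH2 minus GSK126 difference, S1PR3, SPHK1 and S1PR1, and the block with the correction also gave 3. With both, SPHK2 between the knockdowns was 0.18. In the other comparisons of the members it changed no count of calls by over 1.5 times.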
